A study of Homo sapiens with 6 samples.

Results

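MHC class I molecules and the genes that load them with peptide were examined in ARPE-19, an established human cell line derived from retinal pigment epithelium. The cells had been kept for 72 h with either normal or high glucose. The genes are the heavy chains HLA-B, HLA-C, HLA-E and HLA-F, the light chain B2M, the peptide transporter subunits TAP1 and TAP2, tapasin (TAPBP) and the trimming enzyme ERAP1. They were chosen by name, and each was taken from the annotated locus that holds its symbol. The 9 symbols fall on 8 of the 60835 loci in the table, because HLA-B and HLA-C share 1 locus, and all 8 passed the filter on low counts that left 25025 loci. The cells of both groups are labelled wild type and each group has 3 sequenced libraries. The sources used here do not give the glucose concentrations. Nothing states that the libraries of a group were separate cultures. The p-values therefore set the difference between groups only against the spread among these libraries, and that spread may be technical.

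A class I molecule is a heavy chain joined to B2M and a short peptide, and it shows samples of the cell's own proteins to CD8 T cells. Proteasomes cut proteins into peptides, TAP1 and TAP2 pump them into the endoplasmic reticulum, ERAP1 trims them, and tapasin holds empty class I molecules at the transporter until a peptide fits. Interferons are known to raise most of these genes, in retinal pigment epithelium as in other cells, through interferon-stimulated response elements and the NLRC5 coactivator, which works at a module of promoter boxes that the heavy chains share with B2M.

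Of the 9 genes, 8 have an entry in the RefSeq promoter table (build GRCh38.p14), and HLA-E has none. Each window runs from 250 bases before to 50 bases after the annotated start, and positions are given from that start, which is 0. Stretches of 150 bases are shown for the light chain, both transporter subunits, tapasin and ERAP1, whose levels the results turn on. HLA-B is shown as an example of a heavy chain. In 5 of them capitals mark GAAANNGAAA on either strand, the core of an interferon-stimulated response element. In HLA-B capitals mark TGACG and CCAAT on either strand, the letters at the heart of the shared class I module. Both strands were searched, and a match describes letters only. The sequences run 5′ to 3′ along the gene and are those of the reference, not of the ARPE-19 alleles.
TAP1 (chr6:32853705-32853854, minus strand): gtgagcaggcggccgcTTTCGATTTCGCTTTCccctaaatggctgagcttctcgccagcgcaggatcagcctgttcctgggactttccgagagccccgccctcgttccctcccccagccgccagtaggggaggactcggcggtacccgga
TAP2 (chr6:32838740-32838889, minus strand): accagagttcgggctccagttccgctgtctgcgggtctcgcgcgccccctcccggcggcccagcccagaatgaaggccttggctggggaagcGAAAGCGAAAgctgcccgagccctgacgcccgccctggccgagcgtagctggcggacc
TAPBP (chr6:33314079-33314228, minus strand): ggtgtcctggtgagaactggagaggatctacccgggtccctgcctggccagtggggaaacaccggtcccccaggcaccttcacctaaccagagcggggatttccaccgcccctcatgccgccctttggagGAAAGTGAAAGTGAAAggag
ERAP1 (chr5:96807926-96808075, minus strand): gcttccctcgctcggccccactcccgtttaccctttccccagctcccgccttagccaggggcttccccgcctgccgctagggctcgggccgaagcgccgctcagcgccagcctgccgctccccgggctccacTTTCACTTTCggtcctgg
B2M (chr15:44711367-44711516, plus strand): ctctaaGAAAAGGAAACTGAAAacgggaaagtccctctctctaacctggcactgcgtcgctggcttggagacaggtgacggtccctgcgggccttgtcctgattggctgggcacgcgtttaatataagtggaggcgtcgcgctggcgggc
HLA-B (chr6:31357220-31357369, minus strand): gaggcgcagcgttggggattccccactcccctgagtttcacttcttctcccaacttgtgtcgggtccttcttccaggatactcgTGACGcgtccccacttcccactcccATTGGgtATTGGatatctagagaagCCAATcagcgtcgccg

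The interferon element core was found for 6 of the 8 genes, namely B2M (first match at -144), TAP1 (-134), TAP2 (-58), TAPBP (-20), HLA-F (-156) and ERAP1 (2 bases after the start). In B2M, TAP1 and TAPBP a second match overlaps the first. TAP1 and ERAP1 each have a second annotated start, whose window held no match. The element core is held by 3.57% of 34943 such windows. The windows of HLA-B and HLA-C held no match to these letters, and variants of the element that differ from them were not searched for. The window of HLA-B held TGACG at -106 and CCAAT at -81, -74 and -56, and that of HLA-C had TGACG at -105 and its nearest CCAAT at -56. TGACG is held by 24.5% and CCAAT by 34.6% of all windows. An NF-kB consensus match was found for 6 genes, all but HLA-F and TAP2, against 11.3% of all windows. Of the genes with the interferon element core, TAP1, TAPBP and HLA-F were higher in all 3 high glucose libraries, HLA-F by a log2 gap of 0.0034. ERAP1, B2M and TAP2 were lower in all 3. TAP1 starts 488 bases from PSMB9, a proteasome subunit gene read in the opposite direction.

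The libraries held 81616741 to 87748820 counts. Normal glucose 3 stood apart on the second principal component (18% of the variance), at -107.1, while the other 5 libraries lay between 6.61 and 44.05. The spread between libraries was 41% within normal and 27.2% within high glucose, as the square root of edgeR's common dispersion. Where leaving out normal glucose 3 gave a call to a member or a gene named below, that value stands beside it. Among markers of retinal pigment epithelium, RPE65 had 0 to 4 counts per library, TYR 0 to 12 and TTR 0 to 16, all near 0. Others were present, with 2362 to 7437 counts per library for MITF, 419 to 666 for SERPINF1 and 307 to 519 for LRAT. PMEL had 230 to 316 and RLBP1 78 to 373. Of the 9 such markers tested, the keratins KRT8 and KRT18 rose by 1.66 and 1.88 on the log2 scale, BEST1 fell by 2.20 (edgeR adjusted p = 0.0152, 0.00636 and 0.0113) and 6 were not called, MITF among them at -0.74, with a median of -0.28. Summed over all 12 such markers, the level was 553 to 1074 CPM before TMM scaling in normal and 2201 to 2311 in high glucose, of which KRT8 and KRT18 made up most (means of 1243 and 898 CPM in high glucose). Over 5 endothelial markers it was 10.45 to 16.95 and 3.32 to 4.77. Most of that was KDR, with means of 12.2 CPM in normal and 2.3 CPM in high glucose. KDR fell by 2.41 (edgeR adjusted p = 0.00478), and the other 3 endothelial markers tested were not called. Of 7 fibroblast markers, COL1A1 fell by 2.49 and PDGFRB rose by 0.68 (edgeR adjusted p = 0.0302 and 0.00573), and 5 were not called. Normal glucose 1, 2 and 3 had 2483, 74 and 72 counts of COL1A2 and 368, 4 and 15 of DCN, so normal glucose 1 stood apart there. For PDGFRB they had 8783, 9048 and 7975 counts. The part of any of these markers in the results was not tested. Of immune markers, CD3E had no count and PTPRC, the common leukocyte antigen, 0 to 8 counts per library. ITGAM, a myeloid integrin, was called higher with 27, 31 and 24 counts in high glucose against 0, 4 and 0 (edgeR adjusted p = 0.0451), and CD74, described with the class II genes, was the other immune marker called.

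TAP1 rose and ERAP1 fell, each by less than 1.5-fold, and the other 6 loci were not called at an edgeR adjusted p under 0.05. Of all tested loci 19.6% were called, 9.75% higher and 9.86% lower, so that 2 of 8 is near the background. At 6 of the 8 loci the CPM ranges of the groups were separate, against 42.3% of all tested loci. The median log2 change was -0.05 over the 8 loci and -0.0042 over all tested loci, and the median size of the change was 0.36 and 0.50. No member reached a 2-fold change. In bulk RNA, fewer cells of a type and less RNA per cell cannot be told apart.

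**Figure D1:**
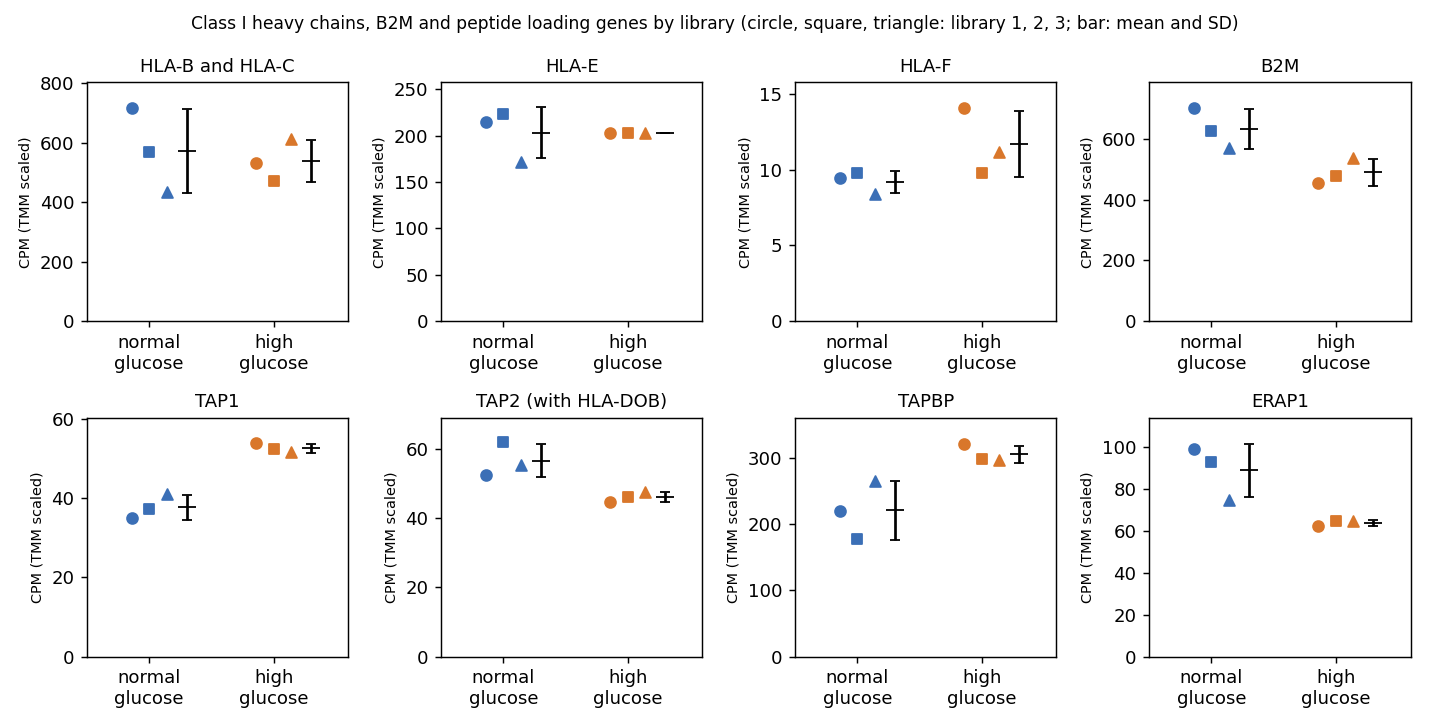
CPM (counts scaled to library size by TMM) of each locus in the 3 normal (blue) and 3 high (orange) glucose libraries, with group mean and SD; each axis starts at 0. TAP1, TAPBP and, by a log2 gap of 0.0034, HLA-F lie higher in all 3 high glucose libraries. B2M, TAP2 and ERAP1 lie lower in all 3, while the HLA-B and HLA-C locus and HLA-E overlap between groups.

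HLA-B and HLA-C, the classical heavy chains, share a locus of the table (chr6:31268749-31357179, GRCh38 by comparison of gene positions), so their reads cannot be told apart here. The sources used here do not say how reads shared by near-identical class I genes were assigned. In CPM, counts scaled to library size by TMM, normal glucose libraries 1, 2 and 3 were at 716, 570 and 435 for the shared locus, and high glucose libraries 1, 2 and 3 were at 531, 471 and 612. Normal glucose held both the highest and the lowest library, and the groups overlapped. The mean was 574 ± 141 CPM in normal and 538 ± 70.9 CPM in high glucose (SD, n = 3). The log2 change was -0.09 (95% interval -0.55 to 0.37; edgeR adjusted p = 0.78), and it was 0.10 without normal glucose 1 and -0.26 without normal glucose 3. Pseudogene loci of the opposite strand (USP8P1 and RPL3P2) overlap it, with mean counts of at most 1051 against 47690.

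HLA-E, a heavy chain that presents leader peptides to NK cell receptors (chr6:30489509-30494194), had 215, 223 and 171 CPM in normal and 202, 203 and 202 CPM in high glucose. The high glucose libraries lay between the normal ones, with an SD of 0.301 CPM against 27.8. The log2 change was -0.0042 (95% interval -0.29 to 0.29; edgeR adjusted p = 0.987). HLA-F, a heavy chain kept largely inside resting cells (chr6:29722775-29729351), had 9.43, 9.74 and 8.39 CPM in normal and 14, 9.77 and 11.2 CPM in high glucose. The groups did not overlap, but by a gap of 0.0034 on the log2 scale between normal glucose 2 and high glucose 2. Its log2 change of 0.34 (95% interval -0.08 to 0.77) was not called (edgeR adjusted p = 0.226), and it was 0.19 without high glucose 1, the highest library. The antisense locus with HLA-F-AS1 overlaps HLA-F and was also not called (log2 change 0.35; edgeR adjusted p = 0.25), and without strand their reads may be mixed.

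B2M, the light chain of every class I molecule (chr15:44711487-44718877), had 702, 625 and 571 CPM in normal and 454, 478 and 539 CPM in high glucose. All 3 high glucose libraries were below the lowest normal one. The mean was 633 ± 65.9 CPM in normal and 490 ± 43.9 CPM in high glucose (SD, n = 3). The log2 change of -0.37 (SE 0.121; 95% interval -0.65 to -0.08) missed the threshold after adjustment over all loci (edgeR adjusted p = 0.075). Without normal glucose 3 it was -0.44 and was called (edgeR adjusted p = 0.0218).

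TAP1, a subunit of the peptide transporter (chr6:32845209-32853978), had 34.9, 37.1 and 41.1 CPM in normal and 53.9, 52.3 and 51.6 CPM in high glucose. The lowest high glucose library was above the highest normal one. The mean was 37.7 ± 3.16 CPM in normal and 52.6 ± 1.13 CPM in high glucose (SD, n = 3), so TAP1 rose 1.39-fold (log2 change 0.48 with SE 0.109; edgeR adjusted p = 0.0249). It was not called without normal glucose 1 or 2 (edgeR adjusted p = 0.0697 and 0.0673) or without high glucose 1, 2 or 3 (edgeR adjusted p = 0.0989, 0.0958 and 0.0868). Its log2 change stayed between 0.43 and 0.55 over the 6 omissions, each of which also leaves fewer libraries for the test. The locus of PSMB9 and PSMB8-AS1 on the other strand overlaps TAP1, with a mean count of 753 against 3880, and reads of the overlap could belong to either.

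TAP2, the other transporter subunit (chr6:32812763-32838770), lies in a locus that also holds HLA-DOB, a class II chain, and AL669918. This locus had 52.6, 61.9 and 55.3 CPM in normal and 44.6, 46 and 47.5 CPM in high glucose. The groups did not overlap, with high glucose lower. The log2 change of -0.30 (SE 0.108; 95% interval -0.55 to -0.04) was not called (edgeR adjusted p = 0.0987), nor was it without normal glucose 3 (-0.31; edgeR adjusted p = 0.069). TAP2 protein works only as a pair with TAP1.

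TAPBP, tapasin, which bridges class I molecules to the transporter (chr6:33299694-33314387), had 219, 177 and 265 CPM in normal and 321, 298 and 297 CPM in high glucose. Every high glucose library was above every normal one, and the normal libraries were spread more widely. The mean was 221 ± 44.1 CPM in normal and 305 ± 13.2 CPM in high glucose (SD, n = 3). The log2 change of 0.47 (SE 0.155; 95% interval 0.10 to 0.83) was near that of TAP1 but was not called (edgeR adjusted p = 0.0761). It was 0.62 and called without normal glucose 3 (edgeR adjusted p = 0.00911), and it was called by voom with a weight per group (adjusted p = 0.0397).

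ERAP1, the aminopeptidase that trims peptides to class I length (chr5:96760810-96808100), had 99.3, 93.2 and 75 CPM in normal and 62.2, 64.8 and 64.8 CPM in high glucose. All 3 high glucose libraries were below the normal ones, and normal glucose 3 was nearest to them. From a mean of 89.2 ± 12.7 CPM in normal glucose ERAP1 fell to 63.9 ± 1.46 CPM (SD, n = 3), a log2 change of -0.48 with SE 0.128 by edgeR (adjusted p = 0.0406). The call was lost without normal glucose 1 or 2 (edgeR adjusted p = 0.111 and 0.107) and without high glucose 1, 2 or 3 (edgeR adjusted p = 0.137, 0.128 and 0.125), with a log2 change of -0.40 to -0.59 over the 6 omissions. CAST on the other strand overlaps the end of ERAP1 and was not called, at a log2 change of -0.01 (edgeR adjusted p = 0.982). ERAP2, the partner enzyme, was not called either (log2 change 0.49; edgeR adjusted p = 0.15), but without normal glucose 3 it was called at 0.76 (edgeR adjusted p = 0.00582).

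**Figure D2:**
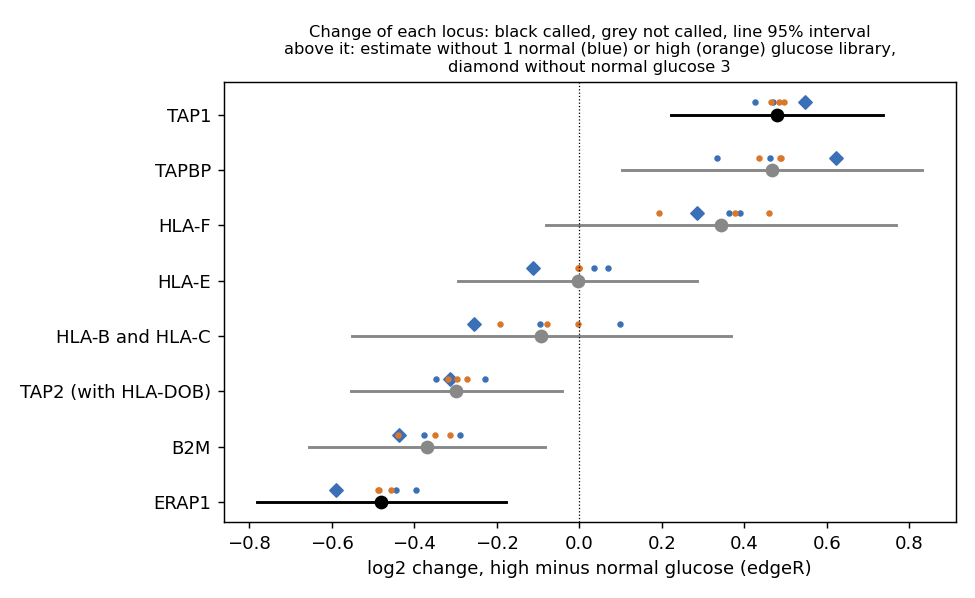
edgeR log2 change of each locus (high minus normal glucose) with its 95% interval, black where called and grey where not; small points above each line are the estimates with 1 library left out, and the diamond is the one without normal glucose 3. TAP1 at 0.48 and ERAP1 at -0.48 stand at the ends, and HLA-E sits at 0. The diamond lies farther from 0 than the full estimate for every locus but HLA-F.

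Within the normal group, normal glucose 3 had the lowest level of 5 of the 8 loci and the highest of 2, TAP1 and TAPBP. For TAP1, TAPBP, B2M and ERAP1 it was the normal library nearest to the high glucose libraries. For the HLA-B and HLA-C locus and for HLA-E it lay below all high glucose libraries. For B2M, normal glucose 3 and high glucose 3 were the nearest pair across the groups, 571 and 539 CPM.

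Levels between genes were compared as the authors' deposited FPKM, which divides by a length for each locus. Those lengths were not checked, and the order below may depend on them. In normal glucose 1, B2M and the HLA-B and HLA-C locus had similar counts (60815 and 62011) and similar FPKM (92.8 and 104). The lengths used for these 2 loci were therefore similar. In normal glucose, B2M (83.5 ± 8.95 FPKM) and the HLA-B and HLA-C locus (83.3 ± 20.7) had about the same FPKM. HLA-E (55.7 ± 7.85) and TAPBP (35 ± 6.84) followed, with SD over 3 libraries. ERAP1 (9 ± 1.31), TAP1 (6.29 ± 0.501) and TAP2 (5.4 ± 0.467) were lower, and HLA-F was lowest at 1.7 ± 0.139. Neighbours in this order whose library ranges overlapped were B2M with HLA-B and HLA-C, and TAP1 with TAP2. In high glucose the FPKM of TAP1 and TAP2 were 9.02 ± 0.265 and 4.52 ± 0.116 and no longer overlapped, while ERAP1 was at 6.63 ± 0.1. The HLA-B and HLA-C locus (80.3 ± 10.5 FPKM) and B2M (66.4 ± 5.56) still overlapped between libraries.

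A set of 5 ratios within a library, chosen after the single values had been seen, set partners against each other. The ratio of TAP1 to TAP2 in FPKM was 1.16, 1.05 and 1.30 in normal and 2.11, 1.99 and 1.90 in high glucose. The groups did not overlap, and an exact permutation test gave p = 0.1 (2-sided; adjusted p = 0.125 over 5 ratios), the smallest that 3 against 3 libraries allow. The ratio of the HLA-B and HLA-C locus to B2M was 1.12, 1.003 and 0.837 in normal and 1.29, 1.09 and 1.25 in high glucose. These overlapped between groups (exact permutation p = 0.2, adjusted p = 0.2).

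**Figure D3:**
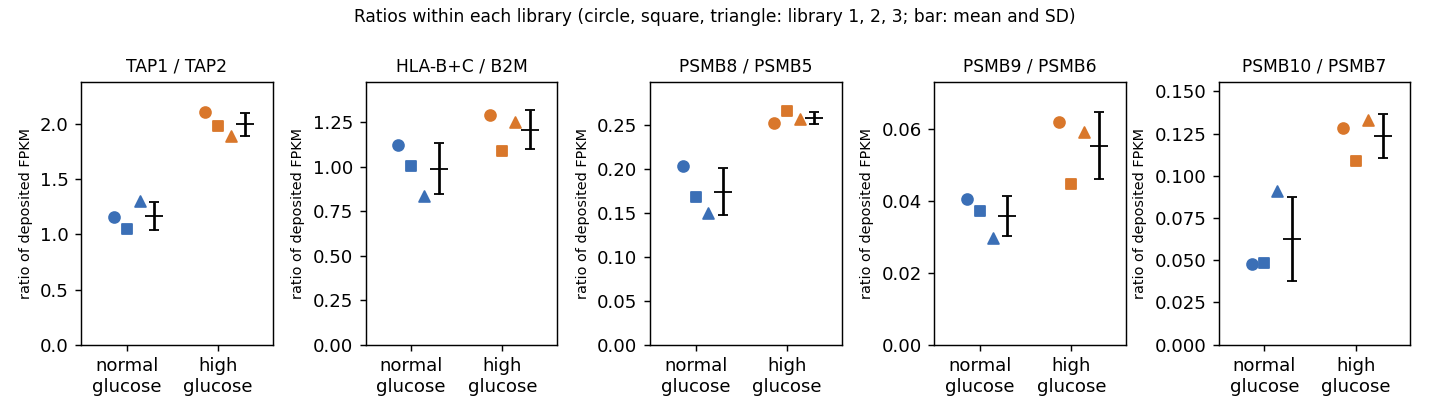
Ratios of deposited FPKM within each library, by group, with mean and SD; each axis starts at 0. TAP1 to TAP2 moves from 1.17 ± 0.126 to 2 ± 0.107, and all ratios but that of the HLA-B and HLA-C locus to B2M separate the groups.

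Proteasome genes supply the peptides, and interferon-inducible subunits replace standard ones in immunoproteasomes. Of 9 proteasome genes, 2 rose, 1 fell and 6 were not called, beside 9.75% higher and 9.86% lower among all tested loci. PSME1 and PSME2, the subunits of the PA28 activator, rose from 60.3 ± 8.29 to 84.7 ± 0.562 and from 25.2 ± 2.37 to 38.9 ± 0.797 CPM (edgeR adjusted p = 0.0358 and 0.0139). PSMB7, a standard catalytic subunit, fell by 0.67 on the log2 scale (edgeR adjusted p = 0.0177). The inducible subunits PSMB8 (0.42, edgeR adjusted p = 0.083) and PSMB9 (0.64, edgeR adjusted p = 0.0911), which replace PSMB5 and PSMB6, were not called, and neither was PSMB10 (0.37, edgeR adjusted p = 0.213). Without normal glucose 3, PSMB8 (0.54) and PSMB10 (0.56) were called (edgeR adjusted p = 0.0235 and 0.0325), and PSMB9 was not (0.51, edgeR adjusted p = 0.135). The ratios of PSMB8 to PSMB5, PSMB9 to PSMB6 and PSMB10 to PSMB7 were each higher in all 3 high glucose libraries (exact permutation p = 0.1, adjusted p = 0.125 for each). Their means were 0.174, 0.0357 and 0.0625 in normal and 0.259, 0.0553 and 0.1235 in high glucose. PSME1, PSME2 and PSMB7 were each not called without high glucose 1, 2 or 3, and PSME1 and PSMB7 not without normal glucose 1 or 2. PSMB9 shares its locus with PSMB8-AS1, and PSMB10 with CTRL and AC040162.

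The 9 genes that help with loading and folding, called folding helpers below, include the aminopeptidases ERAP2 and LNPEP. Of the 9, 5 fell, 1 rose and 3 were not called, beside 9.86% lower and 9.75% higher among all tested loci. Their median log2 change was -1.07. CALR and CANX, the calreticulin and calnexin chaperones that hold new heavy chains, fell from 4246 ± 1688 to 1629 ± 85.2 and from 2151 ± 566 to 1024 ± 36.3 CPM (edgeR adjusted p = 0.0207 and 0.0136). HSPA5, the general chaperone of the compartment, fell by 3.29 (edgeR adjusted p = 0.0108). PDIA3, the disulfide isomerase bound to tapasin, fell by 1.19 and UGGT1, which returns misfolded chains to calreticulin, by 1.36 (edgeR adjusted p = 0.0316 and 0.0248); both were chosen after their values were seen. TAPBPL, a tapasin relative that edits peptides, in a locus with CD27, rose from 7.78 ± 0.55 to 14 ± 1.09 CPM (edgeR adjusted p = 0.0107). The 5 that fell had in normal glucose 3 the level nearest to high glucose. Without normal glucose 1, 2 and 3, 2, 2 and 6 genes of the list were called lower. None was called lower without any 1 of the high glucose libraries, though the estimates changed little for HSPA5 and CALR. Without high glucose 1, 2 and 3, HSPA5 was at -3.26, -3.29 and -3.31 (edgeR adjusted p = 0.0523, 0.0549 and 0.0546). CALR was at -1.34, -1.40 and -1.40 (edgeR adjusted p = 0.082, 0.0795 and 0.0794). TAPBPL lost its call when high glucose 1 or 3 was omitted (edgeR adjusted p = 0.0562 and 0.0563).

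Of 15 regulators of class I transcription, 1 rose and 2 fell, a share near the 19.6% called among all tested loci. The log2 changes of NLRC5 and IRF1 were 0.20 and -0.04 (edgeR adjusted p = 0.447 and 0.918). Over the omissions of 1 library NLRC5 ranged from 0.10 without high glucose 1 to 0.37 without normal glucose 3, and it was called in none (lowest edgeR adjusted p = 0.0777). RFX5, a DNA-binding part of the complex that recruits NLRC5 and CIITA, fell from 81.4 ± 9.3 to 54.6 ± 2.26 CPM (edgeR adjusted p = 0.0178). NFYA, a CCAAT-binding subunit, rose by 0.55 and STAT2, an interferon signal carrier, fell by 0.57 (edgeR adjusted p = 0.0374 and 0.029). Of 12 loci for interferon receptors and their signalling, JAK2, a receptor kinase, fell by 0.90 and USP18, a feedback inhibitor of the interferon receptor, rose by 1.33 (edgeR adjusted p = 0.0264 and 0.0432). None of the called genes of these 2 lists was called without high glucose 1, 2 or 3, and NFYA, STAT2, JAK2 and USP18 were not called without normal glucose 1 or 2 either.

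CIITA, the class II counterpart of NLRC5, in a locus with AC133065, went up 6.95-fold, from 1.15 ± 0.272 CPM in normal to 8.02 ± 0.986 CPM in high glucose (log2 change 2.80 with SE 0.241; edgeR adjusted p = 0.00213), and it was called under each of the 6 omissions. CD74, the class II invariant chain, rose from 11.4 ± 2.72 to 25.4 ± 2.85 CPM (edgeR adjusted p = 0.0117). Leaving out high glucose 1 or 3 ended that call (edgeR adjusted p = 0.0547 and 0.0515). The class II chain HLA-DRA, by contrast, had 0.658, 1.04 and 0.0361 CPM in normal and 0.908, 1.003 and 0.0728 CPM in high glucose. It was low in both groups and lowest in library 3 of each. Of 9 tested class II loci, 2 rose and 7 were not called, and 19.6% of all tested loci were called. Summed over 10 immune markers, CD74 among them, the level was 350 to 484 CPM before TMM scaling in normal and 458 to 575 in high glucose. Most of that sum was a CD68 locus shared with SENP3 and EIF4A1, whose reads cannot be told apart here. It had means of 397.5 CPM in normal and 481.8 CPM in high glucose and was not called (edgeR adjusted p = 0.257). The part of immune markers in these values was not tested.

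Among 13 tested class I-like molecules and ligands of NK cell receptors, 5 rose and 1 fell, beside 9.75% higher and 9.86% lower among all tested loci. ULBP3, a ligand of the NKG2D receptor, rose from 12.8 ± 1.93 to 28.8 ± 0.741 CPM, and NECTIN2, a ligand of DNAM-1, from 115 ± 3.71 to 166 ± 2.01 CPM (edgeR adjusted p = 0.00455 and 0.0103). PROCR, the endothelial protein C receptor with a class I-like fold, rose by 1.18 (edgeR adjusted p = 0.0127). PVR, the other ligand of DNAM-1, in a locus with CEACAM19, fell from 235 ± 36 to 130 ± 2.21 CPM (edgeR adjusted p = 0.00741). ULBP3 and PVR were called under each of the 6 omissions. Leaving out high glucose 2 or 3 ended the call of PROCR (edgeR adjusted p = 0.0573 and 0.0514), and leaving out any high glucose library ended that of NECTIN2 (edgeR adjusted p = 0.0539, 0.0588 and 0.0531). Of 11 genes of class I turnover 3 were called, against 19.6% of all tested loci. VCP, which extracts proteins for degradation and shares its locus with FANCG, rose by 0.46, while UBE2J1, a ubiquitin enzyme of the reticulum, and MARCHF8, a ligase that removes surface proteins, fell by 0.41 and 0.55 (edgeR adjusted p = 0.0171, 0.0254 and 0.0377). None of these 3 was called without high glucose 1, 2 or 3, and UBE2J1 and MARCHF8 were not called without normal glucose 1 or 2.

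**Figure D4:**
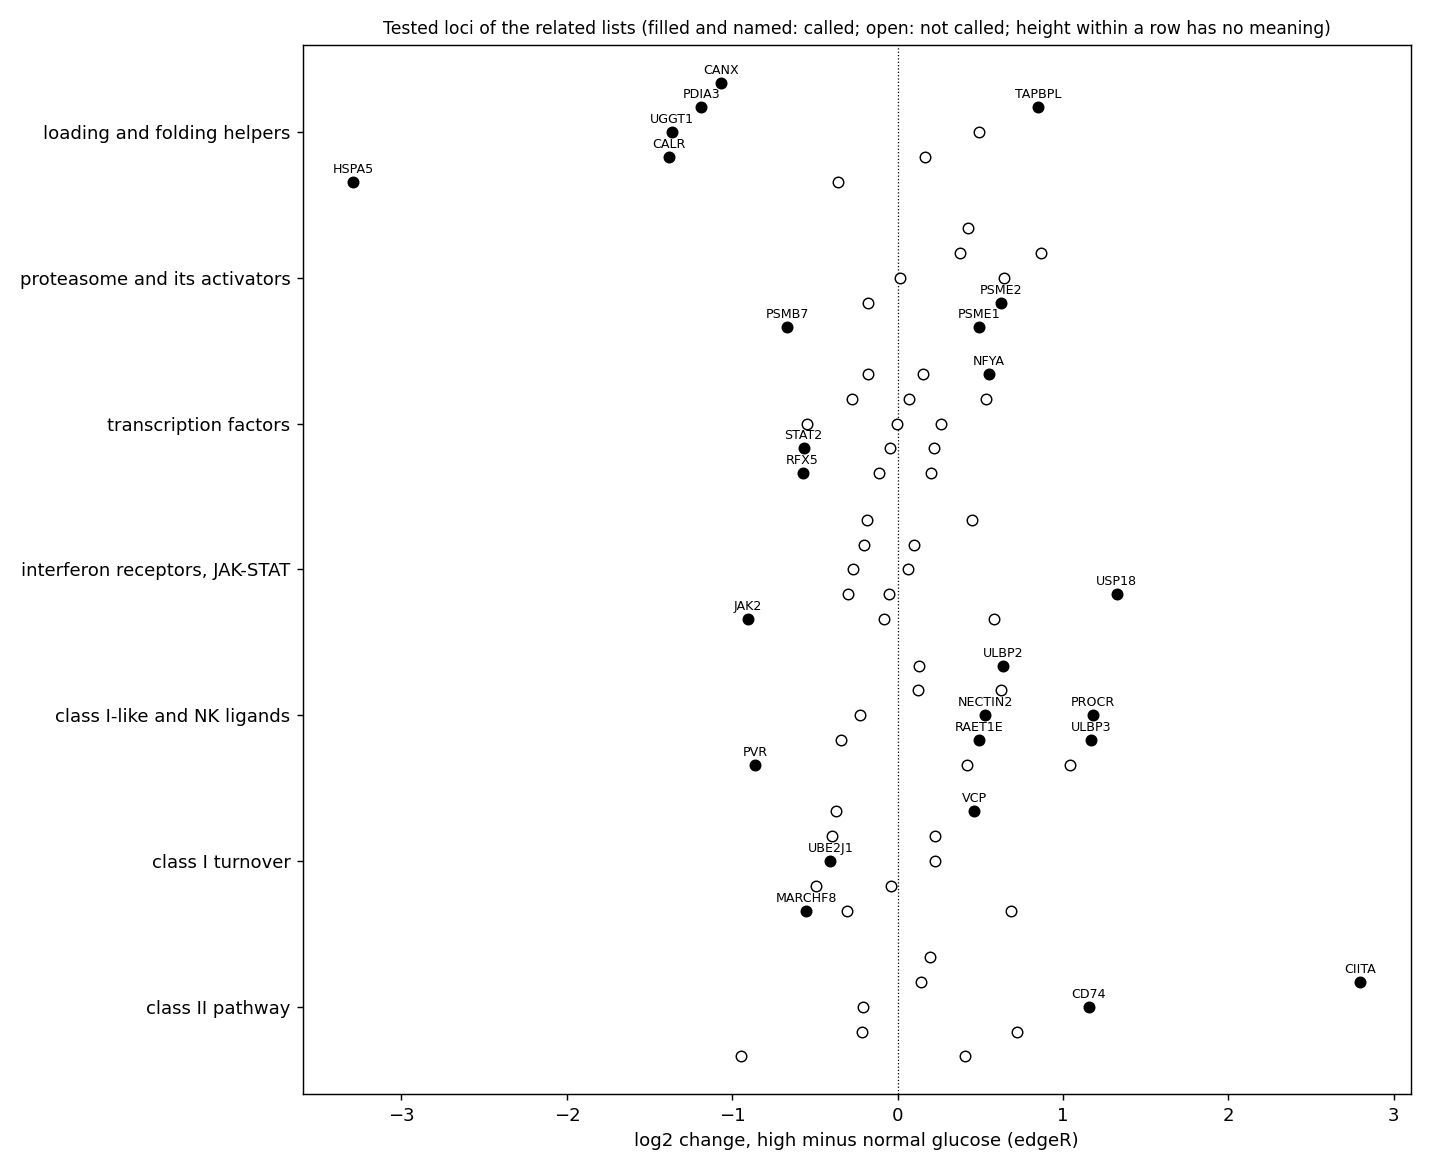
edgeR log2 change (high minus normal glucose) of every tested locus in 7 related gene lists; filled points with names were called. Of the loading and folding helpers, 6 lie to the left of 0, with HSPA5 at -3.29, and TAPBPL, ERAP2 and LNPEP to the right. CIITA lies far to the right at 2.80, and all tested transcription factors lie within 0.6 of 0.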

How the data were processed

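For each of 60835 loci the authors deposited counts, which are whole numbers, and whether they are unmodified read counts is not known here. Beside them stand FPKM values, which the authors scaled for gene length and sequencing depth. The column headers name both units. A mouse build, mm8, and Bowtie 0.12.2 are named in the submitters' processing notes, but 99.67% of 33520 symbols compared overlapped their human GRCh38.p14 position. The counting tool, and whether strand was used, are not given in the sources used here. Counts of 4 (9555 values) outnumbered those of 3 (4210) and 5 (2659), and the cause was not tested. All 37 mitochondrial loci are listed at 0.

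Loci were filtered with filterByExpr and tested with edgeR 4.0.16 (TMM, glmQLFit and glmQLFTest with a term for group alone) under R 4.3.3, with Benjamini-Hochberg adjustment over all 25025. Called means an adjusted p under 0.05. Each SE was derived from the estimate and its F statistic. Alternatives used DESeq2 1.42.0, limma 3.58.1 and voom, other scalings, no filter, counts divided by 4, a replicate block and the omission of each library. The edgeR step was tested on simulated data. Whether replicate numbers pair libraries is not known here, and no pairing was assumed. The members and lists were chosen with earlier results of these data known. All 9 members are named, with every called gene of a related list of up to 4, otherwise the 4 with the smallest adjusted p, and NLRC5, IRF1, PSMB8 and PSMB9. A further gene that the rule names is not reported here. PDIA3, UGGT1, ERAP2, PSMB10, HLA-DRA and the ratios were chosen after their values were seen. No per-sample column was left unmapped.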

Additional observations from a re-analysis of the deposited data

How the results depend on the processing

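TAP1 and ERAP1 kept their direction under every alternative run. The number of members called was 0 without any 1 library other than normal glucose 3, and 4 without that library, TAP1 and ERAP1 among them (edgeR adjusted p = 0.00667 and 0.00361). Over the omissions of 1 library, members called higher ranged from 0 to 2 and lower from 0 to 2, and their median log2 change from -0.18 to 0.0678. The log2 change ranged from -0.1117 to 0.0706 for HLA-E, from -0.26 to 0.10 for the HLA-B and HLA-C locus and from -0.24 to 0.15 for IRF1. HLA-E, near 0, was positive at 0.0402 with library totals only, 0.0039 with upper-quartile scaling, 0.0461 and 0.0452 with limma on FPKM (pseudocounts 0.1 and 1) and 0.0048 with voom, and IRF1 was 0.0004 with library totals only.

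Members called lower were 0 with library totals only, no filter, upper-quartile scaling and limma at both pseudocounts, and members called higher were 2 with voom. DESeq2 called 6400 loci in all, against 4906.

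Deviations of same-numbered libraries from their group means correlated at -0.017, -0.00076 and -0.0094, so no shared effect of the number was seen over all loci. Some class II chains with few counts were lowest in library 3 of both groups. HLA-DRA had 3 and 6 counts there, against 57 to 89 in the others, HLA-DRB1 8 and 17, HLA-DPA1 0 and 4, and HLA-DPB1 0 and 0. HLA-DQA1 and the HLA-DMA and HLA-DMB locus did not have this order, and its cause was not tested. Such values cannot exclude that same-numbered libraries were handled together. With the replicate block, 2545 loci were called in all. Under the block members called were 0 in each direction and HLA-E was 0.0052. Under the block folding helpers called lower were 3, class I-like genes called higher were 2, and proteasome genes, class I transcription factors and turnover genes called were 0 in each direction, with interferon receptor and signalling genes called higher at 0.

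Interferon receptor and signalling genes called higher were 2 with counts divided by 4, library totals only, upper-quartile scaling and limma (pseudocount 0.1), and 0 with voom; lower, 0 with limma at both pseudocounts. Class I-like genes called higher were 3 with no filter. Turnover genes called higher were 2 with DESeq2, counts divided by 4, upper-quartile scaling, limma at both pseudocounts and voom; lower, 4 with counts divided by 4 and voom and 1 with limma at both pseudocounts. Over the omissions, genes called higher ranged from 1 to 6 (class I-like), 0 to 2 (transcription factors, turnover and folding helpers), 1 to 2 (class II), 0 to 3 (interferon) and 0 to 4 (proteasome), and genes called lower from 0 to 2 (transcription factors), 0 to 5 (turnover), 0 to 1 (class II and proteasome), 0 to 3 (interferon) and 0 to 6 (folding helpers). With 3 libraries a group, the number of libraries and not the depth limits the precision of the members, each with 698 or more counts per library.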

Other observations

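Of the 8 member loci, 6 lie on chromosome 6. Between the start of HLA-F and the end of TAPBP (29722775 to 33314387), 153 loci were tested, of which 13 rose and 9 fell. The share called there was 14.4%, against 19.6% of all tested loci.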
